A study of Rattus norvegicus with 78 samples.

Results

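Genes of iron uptake, storage and heme breakdown were followed across the ageing and spatial training groups of a rat hippocampus array series. The genes were Tfrc, Tf, Slc11a2, Fth1, Ftl1, Cp, Aco1, Ireb2 and Hmox1, and the members were all probe sets of the value table that carry exactly 1 of these symbols in the platform annotation. The genes were chosen with earlier results of these data known, though the rule itself used no measured value. It found 10 of the 15866 probe sets other than controls, from 6 of the 9 genes: 3 for Cp, 2 each for Tfrc and Slc11a2, and 1 each for Hmox1, Aco1 and Ireb2. Fth1, Ftl1 and Tf occur only on 3 probe sets that list several symbols, so those 3 are described by all their symbols and counted apart. A total of 8 of the 10 members were tested, because 2 of the Cp probe sets were dim on nearly all arrays.

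Total RNA of the left dorsal hippocampus was hybridised for 78 male rats of the inbred F344 strain, with 1 array per animal. Young rats were 4 to 6 months old and aged rats 24 to 26 months. Untrained home cage controls are NT-Y for the young and NT-A for the aged, with 10 animals in each. The other groups learned a spatial task, the Morris water maze, and were sampled either on day 5, when training ended, or 21 days after it. Day 5 has 10 young (5T-Y), 10 aged unimpaired (5T-AU) and 10 aged impaired animals (5T-AI). Day 21 has 9 young (21PT-Y), 10 aged unimpaired (21PT-AU) and 9 aged impaired animals (21PT-AI). AU marks aged rats classed as unimpaired and AI aged rats classed as impaired, by their maze performance relative to young rats. The labels name no transgene, altered allele or agent in any group. The NT-A animals were not sorted by maze performance.

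Cells take up iron bound to transferrin, the product of Tf, through the transferrin receptor, the product of Tfrc, and the divalent metal transporter Slc11a2 then moves the iron out of the endosome. Spare iron is stored in ferritin, a shell of heavy (Fth1) and light (Ftl1) chains, and ceruloplasmin (Cp) oxidises iron as it leaves the cell. The iron regulatory proteins Aco1 and Ireb2 bind stem-loops in these mRNAs when iron is scarce, which stabilises the Tfrc mRNA and blocks ferritin translation. Heme oxygenase 1 (Hmox1) opens the heme ring and releases its iron, and is known as a stress-induced enzyme. In brain, Tf mRNA is made mainly by oligodendrocytes and the choroid plexus, and ferritin light chain and Hmox1 are prominent in microglia.

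The promoters of Tfrc, Tf and Cp are shown because these genes are listed on probe sets that passed in an age comparison below. The sequences are the 250 bases before the start used by the promoter table for the rat assembly GRCr8, credited to RefSeq, on the strand of the gene. For Cp the stretch lies inside the annotated gene, which begins at base 104368336 of chromosome 2, upstream of the stretch. Matches to 5 motifs, searched on both strands, are in capitals: GGGCGG (GC box), TGACGT (core of the cyclic AMP response element), TATAAA (a core promoter element), TGANNNNGC (core of the antioxidant response element) and ACGTG (core of the hypoxia response element).
Tfrc, chr11:81690319-81690568, minus strand: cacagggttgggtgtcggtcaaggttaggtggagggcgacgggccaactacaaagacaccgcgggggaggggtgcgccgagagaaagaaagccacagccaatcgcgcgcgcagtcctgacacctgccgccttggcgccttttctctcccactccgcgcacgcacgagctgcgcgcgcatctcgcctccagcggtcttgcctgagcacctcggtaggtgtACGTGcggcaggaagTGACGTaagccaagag
Tf, chr8:112695377-112695626, minus strand: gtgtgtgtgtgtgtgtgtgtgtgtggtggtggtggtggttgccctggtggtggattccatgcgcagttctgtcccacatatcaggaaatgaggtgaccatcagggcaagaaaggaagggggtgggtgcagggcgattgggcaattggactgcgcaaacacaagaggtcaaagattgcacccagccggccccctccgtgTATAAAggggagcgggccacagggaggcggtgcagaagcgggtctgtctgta
Cp, chr2:104368420-104368669, plus strand: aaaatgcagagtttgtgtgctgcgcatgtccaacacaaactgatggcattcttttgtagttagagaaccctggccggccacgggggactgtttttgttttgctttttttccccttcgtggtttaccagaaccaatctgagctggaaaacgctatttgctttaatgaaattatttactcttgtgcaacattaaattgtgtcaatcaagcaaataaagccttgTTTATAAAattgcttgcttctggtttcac

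Tfrc held an ACGTG match 31 bases and a TGACGT match 16 bases before its start, Tf a TATAAA match 52 bases before, and Cp 2 overlapping TATAAA matches, 1 on each strand, 29 and 27 bases before. Of 33469 promoters of the same length in the table, 16.6% hold ACGTG, 6.95% TGACGT, 12.9% TATAAA, 30.5% GGGCGG and 34.7% TGANNNNGC. A match of letters is a description of the sequence and not a measured binding site. By the RefSeq annotation of GRCr8, Tfrc lies on chromosome 11, Tf and Ireb2 on chromosome 8, Cp on chromosome 2, Aco1 on chromosome 5, Slc11a2 on chromosome 7, Hmox1 on chromosome 19, and Fth1 and Ftl1 on chromosome 1. The array probe sets themselves come without coordinates in the deposited table.

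Values are MAS5 signals in array units, scaled by the authors so that the trimmed mean of each array was 500 (range 500.083 to 500.099). Differences are in log2(signal + 1) from 1 limma fit over all 78 arrays and 10371 probe sets, with standard errors and with p-values adjusted by Benjamini-Hochberg over all 10371, and a difference passed at an adjusted p under 0.05. One array, the fourth 5T-AI animal, stood apart: its mean correlation with the other 77 arrays was 0.937, against 0.957 to 0.971 for the rest. In that animal the summed signal of 12 microglia and macrophage markers was 36513, against 8877 to 11255 in the other 9 animals of its group, the sum of 10 neuronal markers was 24531 against 32851 to 39351, and 3 blood markers summed to 9484 against 3097 to 5097. Results that rest on it are given with and without it. The log2 of the summed signal of the neuronal list was 14.97 or more on all the other arrays.

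Across the series, the microglia and macrophage list held the most markers that rose with age: 5 of 12 tested rose in untrained rats, 8 on day 5 and 7 on day 21, with medians of 0.40, 0.57 and 0.60 (log2), against medians within 0.01 of 0 over all probe sets. The log2 of its summed signal lay between 12.62 and 13.12 in young arrays. In aged arrays it lay between 13.12 and 13.61, except for 15.16 in the fourth 5T-AI animal. Of 3 blood markers tested, Hbb, the beta chain of haemoglobin, rose by 0.90, 0.89 and 0.96 in the 3 cohorts, and Alas2 passed on day 21 only. The lowest of the 3 blood markers differed by -0.18, -0.24 and 0.03, so the list did not move as 1. None of 9 oligodendrocyte, 5 choroid plexus and 10 neuronal markers passed in any of the 3 age comparisons, 4 of 8 endothelial markers rose on day 21 only, and of 10 astrocyte markers Gfap rose in all 3 and S100b on day 5. In a bulk sample, fewer cells of a type and less RNA per cell cannot be told apart. No adjustment for these lists was made, and their part in the results below was not tested.

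Of the 8 tested members, 1 differed between untrained aged and young rats, against 0.781% of all probe sets tested. On day 5, 2 of 8 members differed (2.5% of all probe sets), and on day 21, 1 of 8 (2.84%). The second on day 5 was Cp, which was above the filter level on 3 of 29 young and 39 of 49 aged arrays, so nothing is read from that count. With the replicate block or with scan day as a block, 2 members passed on day 21, the second being Ireb2. The brighter Tfrc probe set was lower in aged rats in all 3 cohorts. The day 5 difference of Cp was upward, with the limit of the filter just given. No member passed in any comparison of impaired with unimpaired, of trained with untrained, or of day 21 with day 5.

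The transferrin receptor was measured by 2 probe sets, which are kept apart. By probe set 1388750_at, young untrained rats had a lowest, median and highest signal of 1394, 1613 and 1661, and aged untrained rats 1219, 1288 and 1508. On day 5 young rats had 1513, 1645 and 1771, unimpaired rats 1183, 1299 and 1502, and impaired rats 1205, 1353 and 1495. The highest of the 20 aged signals on day 5 lay below the lowest of the 10 young ones, so these groups did not overlap. On day 21 the values were 1491, 1630 and 1821 in young, 1198, 1386 and 1478 in unimpaired and 1155, 1407 and 1508 in impaired rats. Here the ranges met only at the edge, with 17 of 19 aged animals below every young one, and in untrained rats 9 of 10.

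**Figure D1:**
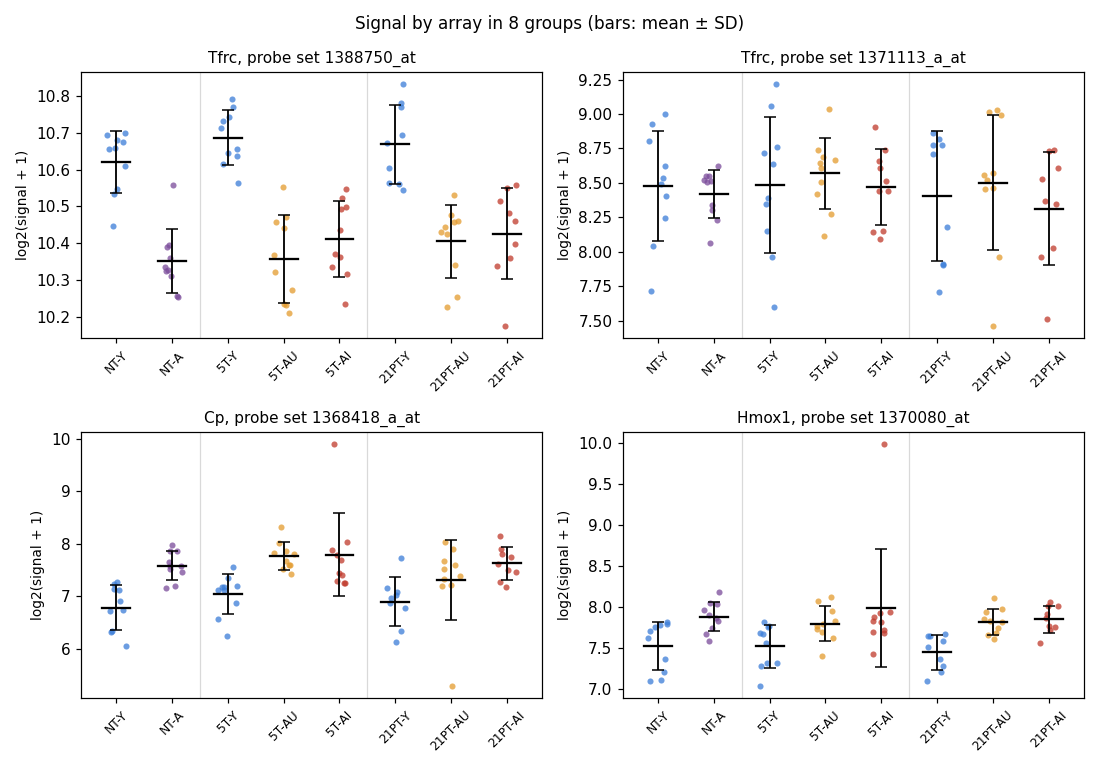
Signal of 4 probe sets by animal in the 8 groups, on a log2(signal + 1) axis that differs between panels. Each point is 1 array (n = 9 or 10 a group), the long bar is the group mean and the whiskers are 1 SD. Probe set 1388750_at of Tfrc was lower in aged groups. The group means of Cp and Hmox1 lie higher in aged groups, with 1 array of 5T-AI far above its group, though Cp passed on day 5 only and Hmox1 in no age comparison. Probe set 1371113_a_at of Tfrc was spread widely in every group but NT-A.

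The age difference of Tfrc probe set 1388750_at was -0.27 ± 0.05 in untrained rats (SE, adjusted p = 0.000161), -0.30 ± 0.04 on day 5 (adjusted p = 6.67e-08) and -0.25 ± 0.04 on day 21 (adjusted p = 2.02e-05), by limma. These are 0.831, 0.811 and 0.839 times the young level. Lower levels were seen in 10 of 10, 20 of 20 and 19 of 19 aged animals relative to the young mean. Within each of the 3 chip lots, which hold arrays of every group, the difference lay between -0.35 and -0.19 in all 9 cohort and lot combinations. Over the 78 arrays the genes that deviated most like this probe set were Bola1 (r = 0.52), Eif3a (0.52) and Surf1 (0.51). The 3 cohorts share no animal, but their tests share 1 estimate of the spread.

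Probe set 1371113_a_at of Tfrc did not show this difference. Its signal ran from 209.0 to 511.5 with a median of 365.3 in untrained young rats, and from 267.2 to 393.3 with a median of 363.7 in untrained aged rats. On day 5 the medians were 366.3 in young, 394.0 in unimpaired and 355.8 in impaired rats, and on day 21 they were 417.2, 370.8 and 329.1. All groups overlapped, and the SD within a group was 0.18 in NT-A and 0.26 to 0.50 in the other groups on the log2 scale, whereas it was 0.07 to 0.12 for the other Tfrc probe set. The age difference was -0.06 (95% interval -0.39 to 0.27), 0.04 (-0.25 to 0.32) and 0.00 (-0.30 to 0.30), with adjusted p of 0.972, 0.969 and 0.997.

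Whether the 2 Tfrc probe sets changed unequally was tested on their difference within each array. The aged minus young value of that difference was -0.21 in untrained rats (exact permutation p = 0.21, 2-sided, adjusted over the 3 cohorts 0.21), -0.34 on day 5 (exact permutation p = 0.0186, adjusted 0.0558) and -0.26 on day 21 (exact permutation p = 0.162, adjusted 0.21). None of the 3 passed after adjustment. The 95% interval of 1371113_a_at holds the change of 1388750_at in untrained rats and on day 21, but not on day 5. The pair was picked because earlier results showed them to differ, so this is no independent test. The deposited table does not say which part of the transcript each probe set reads.

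Transferrin itself was read only by a probe set that lists Srprb and Tf, the first of which encodes a subunit of the signal recognition particle receptor. Its signal had a lowest, median and highest value of 4089, 4829 and 5517 in untrained young and 5224, 6196 and 7249 in untrained aged rats. On day 5 the values were 3918, 4908 and 5495 in young, 5690, 6471 and 6980 in unimpaired and 5443, 5880 and 7335 in impaired rats. Unimpaired and young rats did not overlap on day 5, and 19 of 20 aged animals lay above every young one. On day 21 the values were 4291, 5051 and 5680 in young, 4707, 6066 and 6938 in unimpaired and 6059, 6802 and 7406 in impaired rats, with no overlap between impaired and young.

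The Srprb and Tf probe set rose with age by 0.39 ± 0.06 in untrained rats (1.31-fold, adjusted p = 8.87e-05), 0.34 ± 0.06 on day 5 (1.26-fold, adjusted p = 1.46e-05) and 0.32 ± 0.06 on day 21 (1.25-fold, adjusted p = 0.000141). Within chip lots the 9 values lay between 0.20 and 0.49. On day 21 the probe set did not pass in unimpaired against young rats, with mean log2 levels of 12.53 and 12.31. The 3 chip lots gave 0.24, 0.04 and 0.35 there. In impaired against young rats on day 21 the difference was 0.41, and the lots gave 0.34, 0.35 and 0.55. The genes whose signal deviated most alike from the group mean over the 78 arrays were Cnp (Pearson r = 0.80, probe set 1387897_at), Ppp1r14a (0.78) and Pllp (0.76). Another Cnp probe set deviated less like the Srprb and Tf probe set, with r = 0.50 over the 78 arrays. Cnp and Pllp encode proteins of myelin, and Cnp is on the oligodendrocyte list. These correlations are over animals that share dissection and array, and are given as a description. The oligodendrocyte list itself had a median age difference of 0.06, 0.01 and 0.09, with 0 of 9 markers passed in each cohort. Its part in the difference of the Srprb and Tf probe set was not tested.

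**Figure D2:**
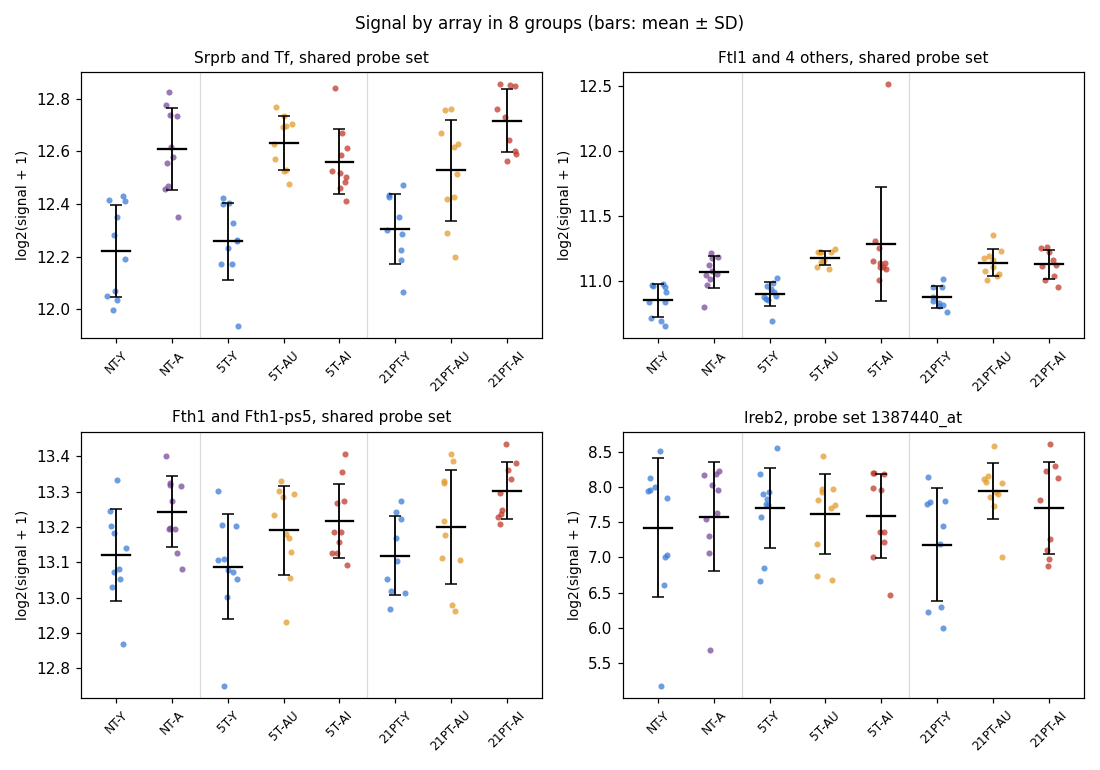
Signal of the 3 probe sets that list a member beside other symbols, and of Ireb2, by animal in the 8 groups, on a log2(signal + 1) axis that differs between panels. Points, bars and whiskers are arrays, group means and 1 SD (n = 9 or 10 a group). The Srprb and Tf and the Ftl1 panels are higher in aged groups, the Fth1 panel overlaps throughout, and Ireb2 spreads over more than 1 log2 unit within most groups.

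Ceruloplasmin has 3 probe sets. Probe set 1368418_a_at gave a lowest, median and highest signal of 65.6, 112.5 and 153.2 in untrained young and 142.4, 190.2 and 249.0 in untrained aged rats. On day 5 it gave 75, 140.6 and 186.3 in young, 170.6, 213.1 and 320.0 in unimpaired and 151.7, 189.4 and 955.0 in impaired rats. On day 21 it gave 68.7, 124.1 and 212.3 in young, 38.4, 175.2 and 262.2 in unimpaired and 143.1, 193.7 and 283.6 in impaired rats. The groups overlapped in each cohort, and the highest signal was that of the 5T-AI animal that stood apart.

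Young levels of Cp were dim. The level above which a probe set counted as expressed, the 40th percentile of an array, lay between 141.8 and 177.2, and this probe set exceeded it on 3 of 29 young arrays and 39 of 49 aged arrays. A member that passes the filter mainly through its high group is more likely to differ, and the young mean is only loosely known. The Cp difference was 0.80 ± 0.22 in untrained rats (adjusted p = 0.0529), 0.74 ± 0.19 on day 5 (adjusted p = 0.0112) and 0.57 ± 0.20 on day 21 (adjusted p = 0.0977). It passed on day 5 only, while 10 of 10, 20 of 20 and 18 of 19 aged animals exceeded the young mean. The untrained difference of 1368418_a_at, 0.80, also passed with scan day as a block (adjusted p = 0.0425) and with only the arrays of the contrast (adjusted p = 0.00404). Without the fourth 5T-AI animal it passed in all 3 cohorts (adjusted p of 0.00627, 0.0147 and 0.0322), with 0.63 in place of 0.74 on day 5. With the fluidics module, the chamber in which an array was stained, as a term, the day 5 difference of 1368418_a_at was 0.62 (adjusted p = 0.551), and each group lay mostly on 1 module.

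The other Cp probe sets, 1368419_at and 1368420_at, exceeded the filter level on 1 array each, that of the same 5T-AI animal. There they read 776.5 and 794.9, whereas the other 9 animals of the group read 42.4 to 134.6 and 40.5 to 100.1. All 3 Cp probe sets were thus high in that animal. With no filter applied their age differences were 0.63, 0.57 and 0.44 for 1368419_at and 0.34, 0.33 and 0.32 for 1368420_at, and none passed.

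Ferritin light chain was read by a probe set that lists Ftl1, Ftl1l2, Ftl1-ps14 and 2 uncharacterised loci. Its signal had a lowest, median and highest value of 1604, 1878 and 2008 in untrained young and 1775, 2140 and 2370 in untrained aged rats. On day 5 the values were 1645, 1901 and 2080 in young, 2173, 2333 and 2419 in unimpaired and 2054, 2251 and 5853 in impaired rats. On day 21 they were 1733, 1835 and 2066 in young, 2048, 2248 and 2612 in unimpaired and 1981, 2228 and 2453 in impaired rats. Unimpaired and young rats did not overlap on day 5, and the highest signal was again that of the fourth 5T-AI animal.

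This Ftl1 probe set rose by 0.33 ± 0.07 on day 5 (adjusted p = 0.00114) and by 0.26 ± 0.07 on day 21 (adjusted p = 0.0292), and its difference in untrained rats was 0.22 ± 0.08 (adjusted p = 0.29). Without the fourth 5T-AI animal, probe set 1367559_at passed in all 3 cohorts, at 0.22 (adjusted p = 0.00213), 0.26 (adjusted p = 1.62e-06) and 0.26 (adjusted p = 4.80e-06). The untrained value is the same in both fits, and the estimate of the spread fell from an SE of 0.08 to 0.05. Within chip lots, with all arrays, the 9 values lay between 0.02 and 0.53, and the untrained ones were 0.39, 0.02 and 0.23. With the fluidics module as a term the differences were 0.34 on day 5 and 0.26 on day 21, and neither passed (adjusted p of 0.136 and 0.231). The day 5 difference also missed the threshold with only the arrays of the contrast (0.33, adjusted p = 0.0656), and the day 21 difference with the beta-actin ratio as a covariate (0.26, adjusted p = 0.0715). The microglia and macrophage list held markers that rose in the same 3 comparisons.

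Ferritin heavy chain was read by a probe set that lists Fth1 and the pseudogene Fth1-ps5, and whose design accession is the RefSeq transcript of Fth1. Medians were 8849 and 9644 in untrained young and aged rats, 8731, 9453 and 9313 in young, unimpaired and impaired rats on day 5, and 8805, 9386 and 10051 on day 21. The groups overlapped, and the aged minus young differences of 0.12 ± 0.05, 0.12 ± 0.05 and 0.13 ± 0.05 did not pass (adjusted p of 0.461, 0.236 and 0.132). After quantile normalization probe set 1367565_a_at had smaller differences of 0.06, 0.09 and 0.05, of which the day 5 value passed (adjusted p = 0.012). With scan day as a block it passed on day 5 (0.12, adjusted p = 0.0321) and on day 21 (0.12, adjusted p = 0.0257), and with the replicate block on day 21 (0.13, adjusted p = 0.034).

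Heme oxygenase 1 had a lowest, median and highest signal of 136.2, 201.2 and 224.1 in untrained young and 191.3, 235.1 and 288.0 in untrained aged rats. On day 5 the values were 130.5, 194.6 and 223.7 in young, 168.1, 217.9 and 277.2 in unimpaired and 170.1, 225.3 and 1013 in impaired rats. On day 21 they were 135.6, 181.4 and 202.2 in young, 193.6, 224.8 and 275.6 in unimpaired and 187.1, 231.7 and 264.8 in impaired rats. The groups overlapped in every cohort, with 16 of 19 aged animals above every young one on day 21. The Hmox1 difference was 0.36 ± 0.14 (adjusted p = 0.359), 0.37 ± 0.12 (adjusted p = 0.104) and 0.39 ± 0.13 (adjusted p = 0.0846), none of which passed.

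The call for Hmox1 turned on 1 animal. Without the fourth 5T-AI animal, which read 1013 while its group otherwise read 170.1 to 243.6, the differences of probe set 1370080_at were 0.36 (adjusted p = 0.0282), 0.26 (adjusted p = 0.0905) and 0.39 (adjusted p = 0.00191). The untrained and day 21 comparisons then passed although the animal is in neither, because all groups share 1 estimate of the spread. With only the arrays of the contrast the day 21 difference also passed (0.39, adjusted p = 0.00258). The genes that deviated most like Hmox1 over all 78 arrays were Gpnmb (r = 0.78), Ifi30 (0.77) and Mgst2 (0.74). Without that animal they were Acvr1 (0.53), RT1-CE10 (0.48) and Siae (0.48), so the first set rested on it. For Cp the first set was Mgst1 (0.71), Gpnmb (0.65) and Serping1 (0.65), and without the animal Mgst1 (0.57), Clmp (0.48) and Gpnmb (0.47). The correlation of Hmox1 with Hbb was 0.24, and 0.02 without the animal.

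**Figure D3:**
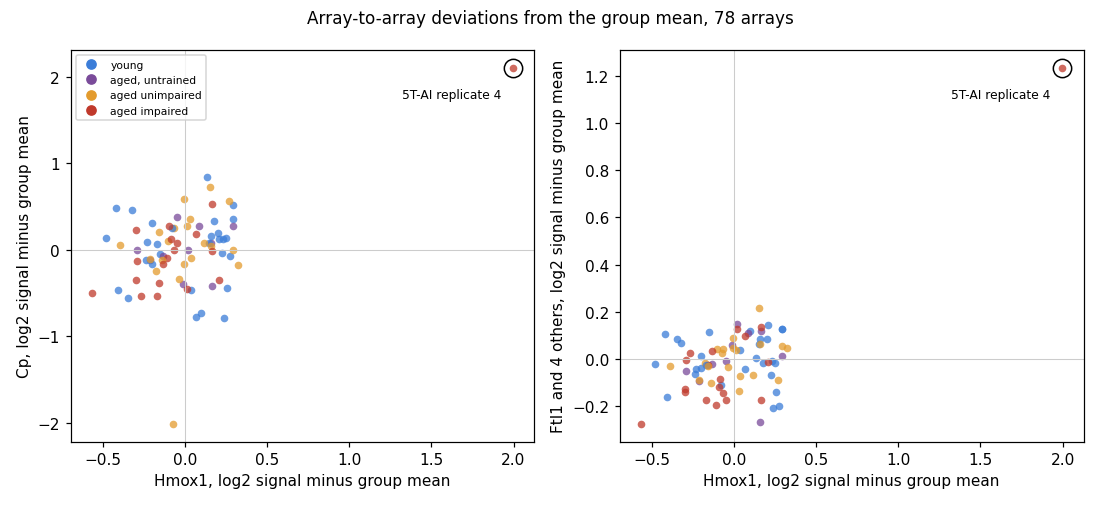
Deviation of each array from its group mean in log2(signal + 1), for Hmox1 on the horizontal axis against Cp (left) and the Ftl1 probe set (right), 78 arrays coloured by class. The circled point, the fourth 5T-AI animal, lies at the top right of both panels, away from all other points. The correlation was 0.47 on the left and 0.68 on the right over 78 arrays, and 0.11 and 0.10 without that animal.

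The iron regulatory proteins and the metal transporter did not pass in any age comparison, except Ireb2 on day 21 under 2 alternatives given below. Aco1, which doubles as cytosolic aconitase, had group medians between 450.0 and 493.7 and differences of -0.01, -0.05 and -0.11 (adjusted p of 0.994, 0.729 and 0.22). Slc11a2 had differences of -0.02, -0.04 and -0.09 by probe set 1367877_at and -0.03, 0.02 and 0.12 by probe set 1388059_a_at, with adjusted p of 0.512 or more. The widest 95% interval for Slc11a2 ran from -0.23 to 0.16 in untrained rats.

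Ireb2, the second iron regulatory protein, was the noisiest member, with signals from 35.3 to 390.2 and an SD of 0.40 to 0.99 within groups. Its age difference was 0.16 ± 0.30, -0.10 ± 0.26 and 0.64 ± 0.27 (adjusted p of 0.959, 0.942 and 0.2). A control ratio of the arrays also differed between the day 21 groups. Beyond a fit with it as a covariate, given below, its part in the Ireb2 value was not tested. The log2 ratio of the 3′ to the 5′ beta-actin control probe sets had a median of 1.06 in 21PT-Y, 0.52 in 21PT-AU and 0.80 in 21PT-AI. With that ratio as a covariate, the day 21 difference of probe set 1387440_at was 0.01 (adjusted p = 0.995). It passed with the replicate block (0.60, adjusted p = 0.0293) and with scan day as a block (0.59, adjusted p = 0.0256). Unimpaired minus young on day 21 passed likewise, at 0.69 with the replicate block (adjusted p = 0.0389) and 0.69 with scan day as a block (adjusted p = 0.0225), against -0.03 with the beta-actin covariate (adjusted p = 0.993).

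**Figure D4:**
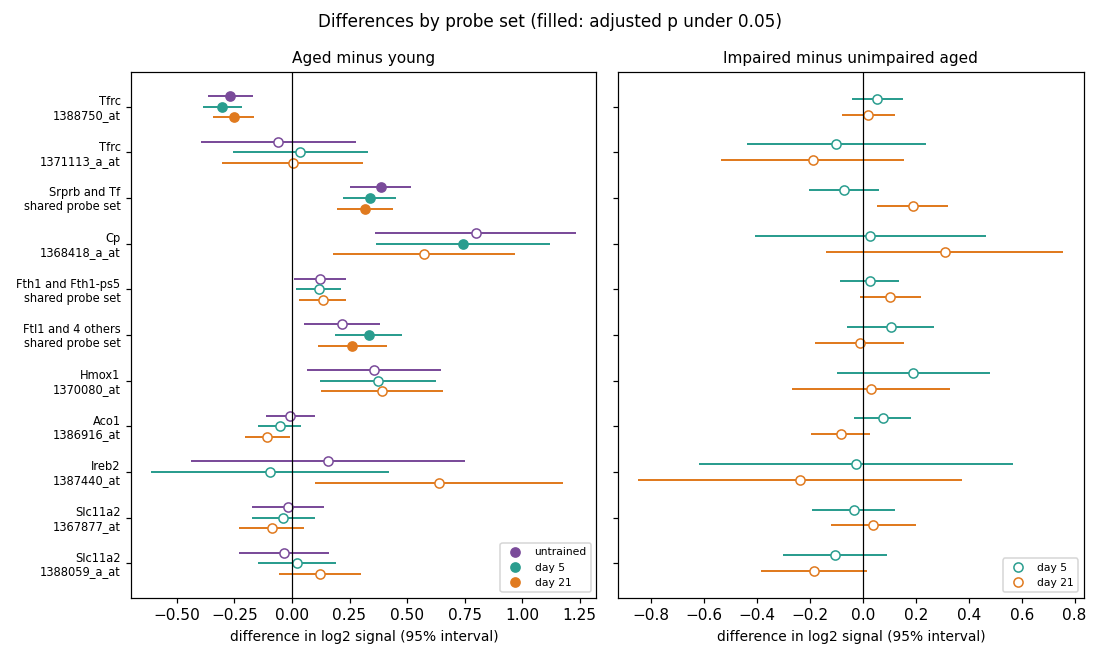
Differences in log2(signal + 1) for the 8 tested members and the 3 shared probe sets, with 95% intervals from the limma fit. The left panel gives aged minus young in 3 cohorts and the right panel impaired minus unimpaired aged rats on day 5 and day 21, on axes of different range. Filled points passed at an adjusted p under 0.05, and none is filled on the right.

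Each performance class was also set against the young rats of its day, with the young arrays shared by both. Tfrc probe set 1388750_at differed by -0.33 in unimpaired and -0.27 in impaired rats on day 5, and by -0.26 and -0.24 on day 21, and all 4 passed (adjusted p between 9.73e-07 and 0.000863). With the fluidics module as a term, the 2 day 21 differences were -0.22 and -0.19 and no longer passed (adjusted p of 0.164 and 0.166). Among the 8 members 1 passed in unimpaired rats on day 5 (1.37% of all probe sets tested), 2 in impaired rats on day 5 (2.02%), 1 in unimpaired rats on day 21 (1.49%) and 1 in impaired rats on day 21 (1.75%). The second member in impaired rats on day 5 was Cp. Its probe set was above the filter level on 3 of 29 young and 39 of 49 aged arrays, so nothing is read from that count. Cp differed by 0.76 in impaired rats on day 5 (adjusted p = 0.0431) beside 0.73 in unimpaired rats (adjusted p = 0.0779). On day 21 it was 0.73 in impaired (adjusted p = 0.0863) and 0.42 in unimpaired rats (adjusted p = 0.348). The call in impaired rats on day 5 rested on the fourth 5T-AI animal. Without it Cp probe set 1368418_a_at differed by 0.52 in impaired rats (adjusted p = 0.276) and passed in unimpaired rats at 0.73 (adjusted p = 0.0137). The day 5 call in impaired rats was also lost with no filter (0.76, adjusted p = 0.0608), with only the arrays of the contrast (0.76, adjusted p = 0.227) and with the fluidics module (0.69, adjusted p = 0.868). Without that animal the day 21 difference of Cp passed in impaired (adjusted p = 0.0202) and not in unimpaired rats (adjusted p = 0.227), and Hmox1 probe set 1370080_at passed on day 21 in both, at 0.38 in unimpaired (adjusted p = 0.0189) and 0.41 in impaired rats (adjusted p = 0.00907).

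The direct comparison asked whether these genes tracked maze performance among aged rats. Of 16 member differences, impaired minus unimpaired on day 5 and day 21, none passed in limma and 0 had an unadjusted p under 0.05, and 0% of all probe sets passed on either day, where 475 and 477 had an unadjusted p under 0.05. Tfrc probe set 1388750_at differed by 0.06 (95% interval -0.04 to 0.15) on day 5 and 0.02 (-0.07 to 0.12) on day 21. Both intervals leave out a difference as large as the age effect of this probe set. Cp differed by 0.03 (-0.40 to 0.46) and 0.31 (-0.14 to 0.75), and Hmox1 by 0.19 (-0.10 to 0.48) and 0.03 (-0.26 to 0.32). Changes of a size within these intervals were not excluded. Without the fourth 5T-AI animal the day 5 differences turned sign, to -0.21 (-0.59 to 0.18) for Cp probe set 1368418_a_at and -0.03 (-0.23 to 0.17) for Hmox1 probe set 1370080_at, and the Ftl1 probe set 1367559_at went from 0.10 to -0.03. The Srprb and Tf probe set was higher in impaired rats on day 21 by 0.19 ± 0.07, seen in 9 of 9 animals relative to the unimpaired mean, with an unadjusted p of 0.00578 and an adjusted p of 0.985, and the day 5 difference was -0.07 ± 0.06. On day 21, 9 of 9 oligodendrocyte markers were also higher in impaired rats by their point values (median 0.14, range 0.03 to 0.21), none passed, and their part in the Srprb and Tf difference was not tested. The change of that difference between the days, 0.26 ± 0.09, did not pass either (unadjusted p = 0.00625, adjusted p = 0.999).

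Time to reach the platform, in seconds, averaged over training days and tabulated by the authors, was 16.2 ± 2.5 in 5T-AU, 50.1 ± 8.1 in 5T-AI, 16.8 ± 1.8 in 21PT-AU and 54.9 ± 14.2 in 21PT-AI (SD), and 10.9 ± 5.5 and 10.5 ± 4.2 in the young groups. Within the 6 trained groups, 66 relations between this time and the signal of the 11 tested probe sets were computed. None passed after adjustment by permutation test (smallest adjusted p = 0.384), while 7 had an unadjusted permutation p under 0.05 by Pearson's r and 4 by Spearman's rho. Hmox1 in 21PT-AI was among both sets, with r = 0.70 (exact permutation p = 0.0339) and rho = 0.77 (exact permutation p = 0.0214, n = 9), and r = 0.67 without the 2 animals farthest from the median time. Slc11a2 probe set 1367877_at in 21PT-AI had r = 0.71 (exact permutation p = 0.0294) and r = 0.54 without such animals. Slc11a2 probe set 1388059_a_at had r = -0.15 in the same group. Tfrc probe set 1371113_a_at in 5T-AU had r = -0.70, and -0.61 without such animals, and Tfrc probe set 1388750_at had r = -0.23 there. The other 4 rested on such animals: leaving them out took Aco1 from 0.68 to 0.08 in 5T-Y and from -0.65 to -0.14 in 5T-AU, and Cp from -0.66 to 0.57 in 5T-AU and from -0.67 to 0.10 in 21PT-AU.

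Training and the time after it left no member past the threshold. Over 5 comparisons of trained with untrained rats of like age, the 40 member differences lay between -0.24 and 0.28 and 0 had an unadjusted p under 0.05. These comparisons called 0.0675%, 0.0289%, 0.0868%, 0% and 0% of all probe sets. Over the 3 comparisons of day 21 with day 5, the 24 differences lay between -0.52 and 0.32, 2 with an unadjusted p under 0.05, and 0.0964%, 0% and 0.00964% of all probe sets passed. The lowest was Ireb2 in young rats (-0.52, adjusted p = 0.737). The 2 were Aco1 in impaired rats (-0.17, unadjusted p = 0.0022, adjusted p = 0.672) and Cp in unimpaired rats (-0.45, unadjusted p = 0.0423, adjusted p = 0.996).

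Whether the age difference itself changed between cohorts, or the performance difference between days, was tested by 4 interaction contrasts. None of the 32 member values passed in limma (smallest adjusted p = 0.753), 1 had an unadjusted p under 0.05, and 0% of all probe sets passed. For Tfrc probe set 1388750_at the age effect differed by -0.03 between day 5 and untrained rats (95% interval -0.16 to 0.09) and by 0.01 between day 21 and untrained rats (-0.11 to 0.14).

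Other genes of iron and heme handling were counted from a list of 68 symbols, of which 45 were on the array and 34 were tested by the brightest probe set of each. None passed in untrained rats, 3 rose on day 5, 3 rose on day 21 and none fell, with a median difference of 0.00, 0.00 and -0.02. Shares of 3 in 34 stand beside 2.02% and 2.12% of all probe sets that rose. Bmp6, a ligand that induces hepcidin in liver, rose by 0.22 ± 0.06 on day 5 (adjusted p = 0.00914) and 0.24 ± 0.06 on day 21 (adjusted p = 0.00852). Nfe2l2, the transcription factor that induces Hmox1 and the ferritin genes under oxidative stress, rose by 0.30 ± 0.08 (adjusted p = 0.0155) and 0.31 ± 0.08 (adjusted p = 0.021).

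By role, 1 of 6 import and export genes (Bmp6), 1 of 8 chaperone and sensing genes (Nfe2l2), 0 of 10 mitochondrial iron-sulfur genes, 1 of 6 heme synthesis genes and 0 of 4 heme breakdown and transport genes rose on day 5, and the same counts held on day 21. The heme synthesis gene was Alad, which encodes the second enzyme of the pathway, on day 5 (0.19 ± 0.05, adjusted p = 0.0109) and Alas2, the red cell form of the first enzyme, on day 21 (0.94 ± 0.22, adjusted p = 0.00494). Alas2 is also on the blood list, and rose there with Hbb. Hmox2, the constitutive heme oxygenase, differed by 0.09, -0.10 and 0.05, and the iron exporter Slc40a1 by -0.33, -0.01 and -0.06, none of which passed. Of the 10 mitochondrial genes, 5 had a difference above 0 in untrained rats, 4 on day 5 and 0 on day 21, with medians of 0.00, -0.01 and -0.06. The day 21 differences lay between -0.14 and -0.0022, and none of them passed.

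Among 12 stress genes tested, Hspb1 and Cryab, small heat shock proteins, rose in all 3 cohorts. Hspb1 rose by 1.21, 0.85 and 1.83 and Cryab by 0.41, 0.48 and 0.73. Mt2A, a metal-binding metallothionein, rose by 0.41 (adjusted p = 0.00593) on day 5 and 0.48 (adjusted p = 0.00137) on day 21. Nqo1, Srxn1, Txnrd1, Gclc and Gclm, known targets of Nfe2l2, did not pass in any cohort, with Nqo1 at 0.11, 0.10 and -0.17.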

How the data were processed

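Hippocampal RNA of 78 rats was measured on Affymetrix RAE230A arrays, 1 array an animal. The deposited values are signal intensities. The submitters' processing notes name GCOS 1.1 and the MAS5 algorithm, and the values show that the authors scaled each array to a common trimmed mean. MAS5 signals of dim probe sets are noisy, which widens their differences on a log scale. Raw scans were not used here.

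Signals were taken as log2(signal + 1). Probe sets above the 40th percentile of their own array on at least 9 arrays were kept, 10371 of 15866 after 57 controls were left out. Symbols came from the platform annotation: 12783 probe sets had 1 symbol, 312 several and 2771 none, and none was named from several. Groups came from the labels. All 8 groups were fitted in limma 3.58.1 (lmFit, eBayes with a trend) under R 4.3.3, with 17 contrasts and 4 interaction contrasts, and p-values were adjusted by Benjamini-Hochberg over all tested probe sets. The fit was tested on simulated data. Permutation tests used Python 3.11.15 with numpy 2.4.6. Named genes were all member probe sets in every contrast, the other pathway genes that passed, and the 3 genes most correlated with a member. The members and lists were chosen with earlier results of these data known.

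The alternatives were quantile normalization, a pseudocount of 32, no filter, and the replicate number or scan day as a block. The others were the fluidics module as a term, the beta-actin ratio as a covariate, the fourth 5T-AI array left out, and only the arrays of each contrast. The labels tie replicate numbers to no shared animal, litter or day. By the array records, however, 55 of 78 arrays share the commonest scan day of their number and 72 of 78 its commonest chip lot. The number of arrays limits the precision.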

Additional observations from a re-analysis of the deposited data

Results flagged for a closer look

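Single arrays stood apart from the rest of their group in 11 of 104 combinations of probe set and group checked with Dixon's test, which flags about 1 in 20 by chance. Values are log2(signal + 1). The fourth 5T-AI animal was the high array for Hmox1 (9.99), for the Cp probe sets 1368418_a_at (9.90), 1368419_at (9.60) and 1368420_at (9.64), and for the Ftl1 probe set (12.52). The same animal had the highest microglia and macrophage sum of the series, and its part in these values was not tested.

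The other 6 arrays were each the low or high one of a single probe set. The sixth 5T-Y animal was low for the Ftl1 probe set (10.68) and the fourth 5T-Y animal for the Srprb and Tf probe set (11.94). The ninth 5T-Y animal stood apart for Slc11a2 probe set 1367877_at (8.80). The fifth 21PT-AU animal was low for Cp probe set 1368418_a_at (5.30) and the third NT-A animal for Ireb2 (5.69). The second NT-A animal was high for Tfrc probe set 1388750_at (10.56), which is the 1 untrained aged animal that overlapped the young group.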

How the results depend on the processing

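Over the alternatives, 75 of 87 counts that answer a comparison stayed within 1.5 times their value and 12 moved. Members passed in untrained rats numbered 1, against 2 with scan day as a block or with only the arrays of the contrast, and 3 without the fourth 5T-AI array. On day 5 they numbered 2, against 1 with the fluidics module as a term. On day 21 they numbered 1, against 2 with the replicate block, scan day as a block or only the arrays of the contrast, and 3 without that array. Over the 4 comparisons of performance classes with young they numbered 5, against 2 with the fluidics module and 8 without that array or with only the arrays of the contrast. No share over all probe sets is set beside the 8, so nothing is read from that rise. Calls over all 10371 probe sets moved too. In unimpaired and impaired rats they numbered 142 and 210 on day 5 and 155 and 182 on day 21. With the fluidics module they numbered 36 and 27, and 29 and 95. Those of the age comparisons are given below, and the member counts are a description only. The 2 Tfrc probe sets differed in 1 of 3 cohorts with a pseudocount of 32, against 0. Of single probe set differences, 800 kept their side of the threshold and direction, 44 newly passed, 15 no longer passed and 32 turned sign, none of which passed before or after. The cause of these moves was not tested.

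Values whose sign turned were differences between groups in log2(signal + 1). With the fluidics module as a term, the untrained age differences became 0.027 for Slc11a2 (1367877_at), 0.058 for Tfrc (1371113_a_at) and 0.064 for Aco1 (1386916_at), the day 5 age difference -0.27 for Tfrc (1371113_a_at), and the day 21 age difference 0.0034 for Slc11a2 (1367877_at). Unimpaired minus young on day 5 became -0.14 for Tfrc (1371113_a_at) and 0.074 for Ireb2 (1387440_at) under that term. Impaired minus young on day 21 became 0.031 for Slc11a2 (1367877_at), 0.097 for Tfrc (1371113_a_at) and -0.016 for Slc11a2 (1388059_a_at). Impaired minus unimpaired became 0.0084 for Slc11a2 (1367877_at) and 0.0042 for the Srprb and Tf probe set 1370228_at on day 5, and 0.093 for Tfrc (1371113_a_at) on day 21. With the beta-actin covariate, the day 21 age differences became 0.0024 for Slc11a2 (1367877_at) and -0.070 for Tfrc (1371113_a_at). Unimpaired minus young on day 21 became 0.0067 for Slc11a2 (1367877_at) and -0.029 for Ireb2, and impaired minus young on day 21 -0.026 for Slc11a2 (1388059_a_at). Impaired minus unimpaired became 0.042 for Ireb2 on day 5, and -0.0086 for Slc11a2 (1367877_at) and 0.088 for Ireb2 on day 21. The day 21 age difference of Tfrc (1371113_a_at) became -0.012 after quantile normalization and -0.020 with scan day as a block. Scan day as a block also gave -0.0081 for Slc11a2 (1388059_a_at) in impaired minus young on day 21, and in impaired minus unimpaired on day 21 it gave -0.0098 for Slc11a2 (1367877_at), -0.0030 for Hmox1 (1370080_at) and 0.0042 for the Ftl1 probe set 1367559_at. Without the fourth 5T-AI array, impaired minus young on day 5 became 0.016 for Slc11a2 (1388059_a_at). Impaired minus unimpaired on day 5 then became -0.21 for Cp (1368418_a_at), -0.031 for Hmox1, 0.000398 for Ireb2 and -0.032 for the Ftl1 probe set.

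Over all probe sets, calls in untrained rats, on day 5 and on day 21 numbered 81, 259 and 295, against 27, 54 and 116 with the fluidics module and 170, 241 and 439 without the fourth 5T-AI array. With scan day as a block they numbered 119, 379 and 487, with only the arrays of the contrast 149, 169 and 289, and with the beta-actin ratio 85, 282 and 164. With the replicate block they numbered 99, 303 and 501. After group means were subtracted, every same-numbered pair of arrays correlated above 0.1 in 2 of 28 pairs of groups. The median correlation within a pair of groups ran from 0.06 to 0.25. The numbers follow scan day and chip lot in large part. Signals near background limit what Cp, Hmox1 and Ireb2 can show.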
